A study of Homo sapiens with 2 samples.

Results

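HMOX1 and 9 further genes of the NRF2, KEAP1 and BACH1 axis were read out in HCT116 cells, an epithelial line from a human colon carcinoma. The genes are HMOX1, HMOX2, OSGIN1, SRXN1, TXNRD1, GCLM, GCLC, NQO1, NFE2L2 and BACH1. They were taken by gene name from the deposited count table, which holds 60623 named genes, and all 10 had a row. The members were chosen by pathway and selected on the ratio of siKAT7 to siControl of these same libraries, so their ratios are descriptions and carry no test.

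RNA-seq was made from 1 culture transfected with an siRNA against KAT7 (siKAT7) and 1 culture transfected with a non-specific siRNA (siControl), both with a lipid reagent and both labelled as wild type in genotype. KAT7, also called HBO1, is a histone acetyltransferase, and the comparison asked how lowering it alters gene expression. Each group had 1 library. No difference below can therefore be set against the spread between cultures, and every interval covers counting error only.

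NRF2, the protein of NFE2L2, is a transcription factor that the adaptor KEAP1 keeps low by presenting it to the CUL3 ubiquitin ligase. Oxidants and electrophiles disable KEAP1, and NRF2 then pairs with small MAF proteins on antioxidant response elements. BACH1 occupies the same elements as a repressor and leaves them when it binds haem, and HMOX1 is its best known target. The genes under these elements encode enzymes of haem breakdown, glutathione synthesis, the thioredoxin system and quinone reduction.

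Promoter windows are shown for the genes next to HMOX1 in their ratios, OSGIN1 and SRXN1, and for the pair whose windows hold antioxidant response element letters, TXNRD1 and GCLM. Each runs from 250 bases before to 50 bases after a RefSeq start in GRCh38.p14, 5′ to 3′ on the gene's strand. Capitals mark matches to the core of the antioxidant response element (TGACNNNGC) or of the AP-1 site (TGANTCA) on either strand. The windows lie at chr16:83952990-83953289 on the + strand for OSGIN1, chr20:653151-653450 on the - strand for SRXN1, chr12:104215529-104215828 on the + strand for TXNRD1 and chr1:93909381-93909680 on the - strand for GCLM.
OSGIN1: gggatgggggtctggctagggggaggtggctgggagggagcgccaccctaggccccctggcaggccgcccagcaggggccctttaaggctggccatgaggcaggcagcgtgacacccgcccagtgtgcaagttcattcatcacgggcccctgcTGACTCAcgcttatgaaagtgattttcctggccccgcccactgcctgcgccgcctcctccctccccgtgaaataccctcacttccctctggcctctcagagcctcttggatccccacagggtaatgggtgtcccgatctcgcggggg
SRXN1: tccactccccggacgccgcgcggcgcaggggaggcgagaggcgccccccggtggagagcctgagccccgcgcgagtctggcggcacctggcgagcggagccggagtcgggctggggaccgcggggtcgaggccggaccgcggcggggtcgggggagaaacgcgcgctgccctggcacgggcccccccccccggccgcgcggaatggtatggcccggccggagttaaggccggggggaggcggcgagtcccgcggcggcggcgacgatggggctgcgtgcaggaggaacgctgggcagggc
TXNRD1: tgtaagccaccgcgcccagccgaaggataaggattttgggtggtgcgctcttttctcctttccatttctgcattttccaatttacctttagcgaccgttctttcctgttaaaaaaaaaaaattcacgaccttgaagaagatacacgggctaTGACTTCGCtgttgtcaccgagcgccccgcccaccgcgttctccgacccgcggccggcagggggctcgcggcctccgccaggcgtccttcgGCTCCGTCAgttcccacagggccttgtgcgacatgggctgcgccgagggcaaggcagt
GCLM: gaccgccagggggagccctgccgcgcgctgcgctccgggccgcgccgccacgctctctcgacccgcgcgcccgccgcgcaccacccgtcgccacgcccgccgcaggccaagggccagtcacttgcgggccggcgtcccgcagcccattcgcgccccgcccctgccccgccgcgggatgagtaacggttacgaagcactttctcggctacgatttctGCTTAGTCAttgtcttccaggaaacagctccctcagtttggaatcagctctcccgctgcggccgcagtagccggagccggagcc

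RefSeq windows were matched for 9 of the 10 genes, 14 windows in all, and HMOX1 had none in the table. OSGIN1 holds TGACTCA 97 bases before the start. TXNRD1 holds TGACTTCGC 99 bases before the start and, read on the other strand, TGACGGAGC from 8 bases before it. A further TXNRD1 window, at a downstream start, holds TGACAAAGC on the other strand. GCLM holds TGACTAAGC on the other strand, 34 bases before the start, and the first of 3 BACH1 windows holds TGAGTCA. That BACH1 window also lies inside the annotated gene. The SRXN1 window, with a GC content of 80.0%, holds neither core, and the NQO1, GCLC, NFE2L2 and HMOX2 windows hold neither. Of all 35116 windows in the table, 13.3% hold the antioxidant response element core and 7.71% the AP-1 core, against 3 and 2 of the 14 windows of these genes. The core of the composite element bound by ATF4 with C/EBP proteins (TGATGNAA) is in 3.62% of all windows and in 0 of the 14. A match describes letters in a window and does not show that a factor binds there. Sequence outside the windows was not searched, so a window without a match does not show that the gene lacks the element.

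The libraries held 23533134 counts in siKAT7 and 23450326 in siControl over named genes. The epithelial keratin genes KRT8, KRT18 and KRT19 and the adhesion gene EPCAM were each at 3950 counts or more in siKAT7 and 4230 or more in siControl, and the cadherin gene CDH1 was at 2401 in siKAT7 and 2229 in siControl. The intestinal markers CDX2 (390 counts in siKAT7 and 338 in siControl) and VIL1 (12 in siKAT7 and 15 in siControl) had few counts, and VIL1 did not reach 1 CPM. PTPRC (blood cells) and PECAM1 (endothelium) were listed at 0. The other-cell-type markers summed to 2947 counts in siKAT7 and 2875 in siControl, mostly from CD68 and COL1A1, and 3 of the 11 were at 0 in both. KAT7 itself had 12.7 CPM (counts relative to library size, scaled by TMM factors) in siKAT7 and 18.2 CPM in siControl, or 69.6% of the siControl level with a counting interval of 59.7% to 80.8%. Mitochondrial genes took 6.40% of counts in siKAT7 and 7.11% in siControl, and their part in the results below was not tested.

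Within the group, HMOX1 and OSGIN1 were at least 1.5-fold higher in siKAT7 with an interval that left out 0, 0 were 1.5-fold lower and 8 lay between. Across the 13217 genes averaging at least 1 CPM over both libraries, 3.92% were higher and 3.91% lower by the same rule, or 518 and 517 genes. Under total-count scaling 360 genes were higher and 838 lower. All 10 members passed that expression filter. HMOX1 alone was 2-fold higher, which held for 1.35% of all genes. At a limit of 25% above siControl, HMOX1, OSGIN1, SRXN1 and NFE2L2 were higher, against 10.1% of all genes. Under total-count scaling NFE2L2 was below that limit, with a log2 ratio of 0.27. The genes were listed because of this contrast, so nothing is read from their count against that background. In a bulk library, more RNA of a gene per cell and more cells with that RNA cannot be told apart.

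**Figure D1:**
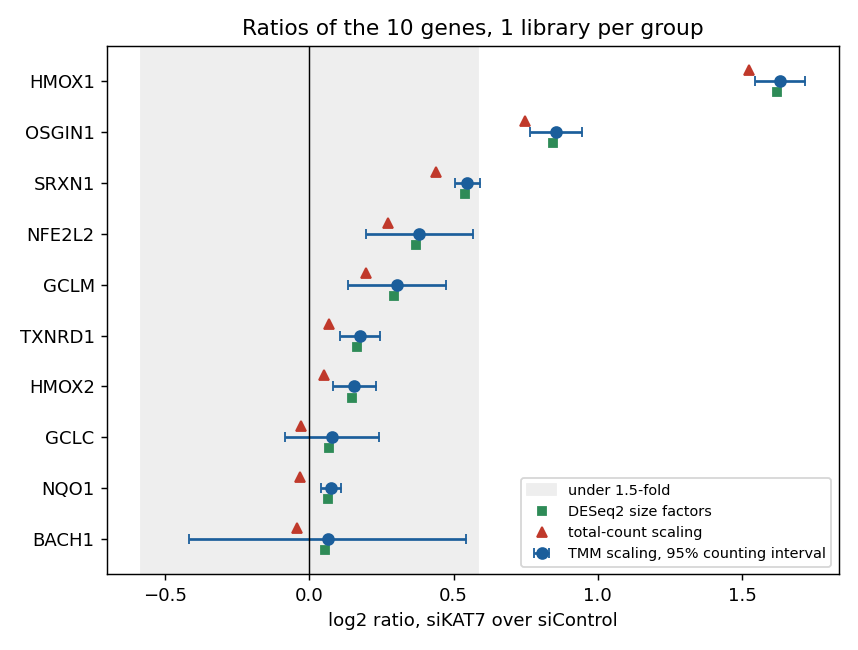
Log2 ratio of each of the 10 genes, siKAT7 over siControl, with 1 library per group; circles and bars give the TMM-scaled ratio and its 95% counting interval, squares and triangles the ratio under other scalings, and the grey band holds ratios under 1.5-fold. HMOX1 (1.63) and OSGIN1 (0.85) lie right of the band, and GCLC, NQO1 and BACH1 lie on either side of 0 depending on the scaling.

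HMOX1 encodes the inducible haem oxygenase, which opens the haem ring to biliverdin, iron and carbon monoxide. The gene lies on chromosome 22 from 35380361 to 35394214 on the + strand (GENCODE 29, GRCh38). It had 4165 counts in siKAT7 and 1442 in siControl, or 184 CPM in siKAT7 and 59.3 CPM in siControl. The siKAT7 library was thus the high one, 3.10-fold above siControl (log2 ratio 1.63, 95% counting interval 1.55 to 1.72). Among the 7834 genes averaging at least 10 CPM its ratio ranked 6 from the highest, and among all 13217 genes it ranked 47. In the authors' deposited table its log2 fold is 1.53, and it is the 1 gene of the 10 marked significant there. That mark comes from the same 1 library per group, so it does not measure the spread between cultures.

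HMOX2 encodes the constitutive haem oxygenase, which carries out the same reaction. It had 2987.78 expected counts in siKAT7 and 2877 in siControl. Its log2 ratio was 0.16 (0.08 to 0.23), under the 1.5-fold limit. Under total-count scaling it was 0.05, with an interval of -0.02 to 0.12 that held 0. HMOX2 shares 228 of its 3793 exon bases with NMRAL1 on the opposite strand, which had 1199 counts in siKAT7 and 1225 in siControl. The sources used here give no strand setting for the counting, so reads of that stretch may be divided between them.

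The balance of the paralogues can be read within each library, where no scaling between libraries enters. Per count of HMOX2 there were 1.39 counts of HMOX1 in siKAT7 (1.33 to 1.46) and 0.501 in siControl (0.470 to 0.534). HMOX1 made up 58.2% of the counts of both in siKAT7 (exact binomial interval 57.1% to 59.4%), against 33.4% in siControl (32.0% to 34.8%). HMOX1 was therefore the more abundant of the pair in siKAT7 and the less abundant in siControl. The order was the same per base of gene model, with 1.53 HMOX1 per HMOX2 in siKAT7 and 0.549 in siControl. The ratio of these ratios was 2.78 (2.57 to 3.01). Set against NQO1 instead, the HMOX1 ratio was 2.94-fold higher in siKAT7 than in siControl (2.76 to 3.14).

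OSGIN1, a growth inhibitor gene induced by oxidative stress, came second. It had 2744 counts in siKAT7 and 1628 in siControl, or 121 CPM in siKAT7 and 66.9 CPM in siControl. The siKAT7 library was 1.81-fold above siControl (log2 ratio 0.85, interval 0.77 to 0.94). Against NQO1 within each library the OSGIN1 ratio was 1.72-fold higher in siKAT7 (1.61 to 1.84). Its ratio ranked 253 among all 13217 genes and 36 among those averaging at least 10 CPM. The gene lies on chromosome 16 from 83948282 to 83966332 (+ strand), a chromosome that also holds HMOX2 and NQO1, which were both under the limit.

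SRXN1 encodes sulfiredoxin, which repairs over-oxidised peroxiredoxins. It had 10241 counts in siKAT7 and 7518 in siControl, and its 1.46-fold ratio fell just short of the limit (log2 ratio 0.55, interval 0.50 to 0.59). Of the 2698 exon bases of SRXN1, 2292 are shared with the overlapping model AL121758.1, which was listed at 0 counts in both libraries. No reads of the shared bases were thus counted for AL121758.1, and whether all of them were assigned to SRXN1 is uncertain. Its NRF2-linked partner in the thiol systems, TXNRD1, encodes cytosolic thioredoxin reductase. TXNRD1 had 3313 counts in siKAT7 and 3148 in siControl (log2 ratio 0.18, interval 0.10 to 0.25).

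Glutamate-cysteine ligase, which makes the first step of glutathione synthesis, is built of a modifier and a catalytic subunit. GCLM, the modifier subunit, had 610 counts in siKAT7 and 530 in siControl (log2 ratio 0.30, interval 0.13 to 0.48). GCLC, the catalytic subunit, had 608 expected counts in siKAT7 and 618.03 in siControl (0.08, -0.09 to 0.24). Both stayed under 1.5-fold, and the interval of GCLC held 0. There were 1.00 counts of GCLM per count of GCLC in siKAT7 (0.895 to 1.12) and 0.858 in siControl (0.762 to 0.965). The ratio of these ratios was 1.17 with an interval of 0.992 to 1.38, so a difference between the subunits was not detectable at this depth.

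NQO1, the quinone reductase widely used as a readout of NRF2, differed little. It had 12990 counts in siKAT7 and 13234 in siControl. The TMM-scaled log2 ratio was 0.08 (0.04 to 0.11), and under total-count scaling it was -0.03. The direction of NQO1 thus depends on the scaling, and so do those of GCLC (-0.03 under total-count scaling) and BACH1 (-0.04). The median shift over all genes was -0.11 for total-count scaling and -0.01 for size factors from DESeq2. The median over all 13217 genes was -0.0048 with TMM and -0.11 with total counts, so relative to the median gene NQO1 stood slightly above 0 in both.

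The regulators themselves were measured with fewer counts. NFE2L2 had 527.65 expected counts in siKAT7 and 434.97 in siControl, a log2 ratio of 0.38 (0.20 to 0.57). Under total-count scaling it was 0.27 (0.09 to 0.46). An overlapping transcript on the same strand, AC019080.1, had 7 counts in siKAT7 and 19 in siControl, and with its counts added the log2 ratio was 0.34 (0.16 to 0.52). BACH1 had 74 counts in siKAT7 and 76 in siControl, a log2 ratio of 0.06 with a wide interval of -0.42 to 0.54. A difference in BACH1 was not detectable at this depth. There were 7.14 counts of NFE2L2 per count of BACH1 in siKAT7 (5.59 to 9.23) and 5.72 in siControl (4.48 to 7.40), and these intervals overlap. RNA levels do not report the protein of NRF2, whose amount is set mainly by its breakdown.

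**Figure D2:**
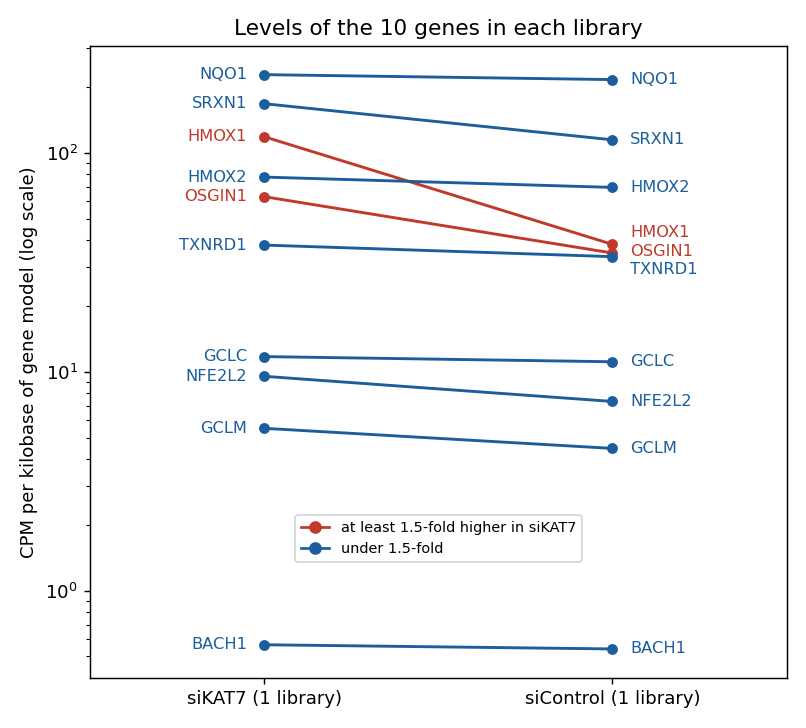
Level of each of the 10 genes in CPM per kilobase of gene model on a log axis, siKAT7 on the left and siControl on the right, 1 library each; a line joins the values of a gene. HMOX1 crosses HMOX2, at 118 in siKAT7 and 38.1 in siControl while HMOX2 is at 77.4 in siKAT7 and 69.4 in siControl; the other lines keep their order.

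Per kilobase of gene model (the lengths are those of the deposited table), NQO1 had the highest level, with 227 CPM per kilobase in siKAT7 and 216 in siControl. SRXN1 came second with 167 in siKAT7 and 114 in siControl. HMOX1 was at rank 3 in siKAT7, at 118 CPM per kilobase, and at rank 4 in siControl, at 38.1. HMOX2 was at rank 4 in siKAT7 with 77.4 and at rank 3 in siControl with 69.4. The next places were the same in both libraries, with OSGIN1 at 63.0 in siKAT7 and 34.8 in siControl and TXNRD1 at 37.9 in siKAT7 and 33.5 in siControl. In siControl the counting interval of OSGIN1 (33.1 to 36.5) overlapped those of its neighbours HMOX1 (36.2 to 40.1) and TXNRD1 (32.4 to 34.7). Overlap of separate intervals does not show that levels are equal, and the order of these genes there was not tested. In siKAT7 the intervals of HMOX1, HMOX2, OSGIN1 and TXNRD1 did not overlap. Below them came GCLC (11.7 in siKAT7 and 11.1 in siControl), NFE2L2 (9.52 in siKAT7 and 7.31 in siControl), GCLM (5.51 in siKAT7 and 4.46 in siControl) and BACH1 (0.566 in siKAT7 and 0.541 in siControl).

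Summed over the 10 genes the level was 718 CPM per kilobase in siKAT7 and 529 in siControl. HMOX1 held 16.5% of that sum in siKAT7 and 7.20% in siControl, and NQO1 held 31.6% in siKAT7 and 40.7% in siControl. Of the difference between the sums, HMOX1 gave 42.4%, SRXN1 28.0% and OSGIN1 14.9%. The sums and these parts of their difference depend on the scaling. They are given for TMM scaling only and were not computed for total-count scaling, under which the log2 ratio of NQO1 was -0.03. HMOX1 thus gave the largest share as well as the largest ratio, and SRXN1, with its ratio under 1.5-fold, gave more of the sum than OSGIN1. The other 7 members had log2 ratios of 0.06 to 0.38 with a median of 0.16, and 0.05 under total-count scaling.

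**Figure D3:**
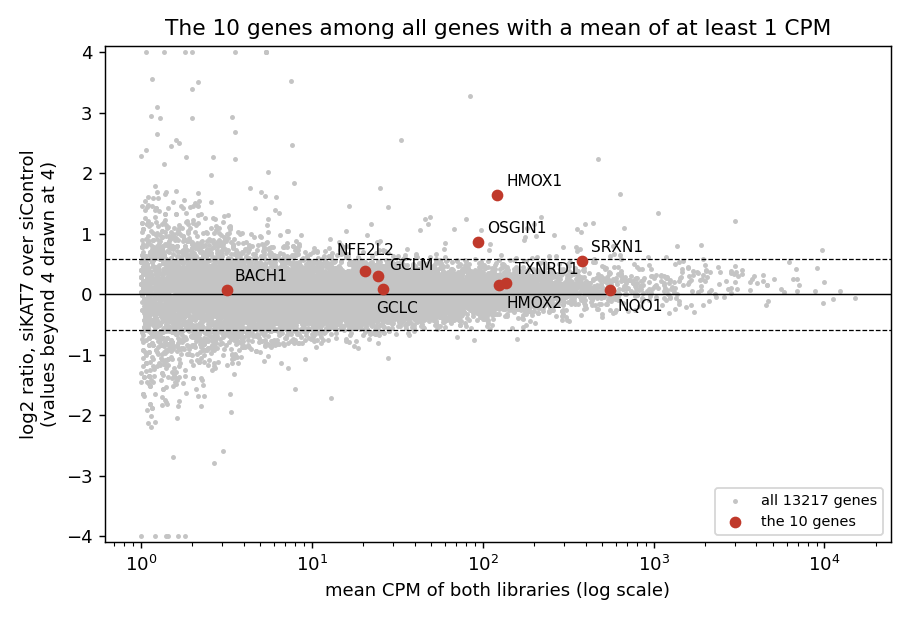
Log2 ratio, siKAT7 over siControl, against the mean CPM of both libraries on a log axis for 13217 genes (grey) with the 10 genes in red and dashed lines at 1.5-fold; values beyond 4 are drawn at 4. HMOX1 and OSGIN1 stand above the upper line at a mean expression where few genes do, and SRXN1 lies just under it.

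Most genes past the limit were of low expression. At an average of at least 10 CPM, which 9 of the 10 members had and BACH1 had not, 1.39% of 7834 genes were 1.5-fold higher and 0.766% lower. The central 95% of log2 ratios in that set ran from -0.47 to 0.50. HMOX1, OSGIN1 and SRXN1 lay beyond it, and NFE2L2 (0.38) and GCLM (0.30) inside it. The 10 genes were selected on this ratio, so their place against that range is a description and carries no test. By the difference of log2 ratios over these 2 libraries, 5 other genes averaging at least 10 CPM were nearest to HMOX1. They were HSPA1A, MT-TA, SNORD3A, PABPN1 and RN7SL1. HSPA1A, an HSP70 chaperone gene, was closest with a log2 ratio of 1.75 (1.56 to 1.96), on 871.74 expected counts in siKAT7 and 276.68 in siControl. It shares reads with the near-identical HSPA1B. The sum of both, 96304 counts in siKAT7 and 44610 in siControl, had a log2 ratio of 1.21 (1.20 to 1.23). HSPA1A held a small part of those counts, so its own ratio depends on how reads were divided, which the interval does not cover. The ratio of the sum lies farther from HMOX1 than those of the other genes named here. The transfer RNA gene MT-TA had 1.45, the small nucleolar RNA SNORD3A 1.44, the poly(A)-binding protein gene PABPN1 1.27 and the signal recognition particle RNA RN7SL1 1.24. All 5 had counts that were not whole, so reads were divided between gene models. Likeness over 2 libraries means a similar ratio and nothing more.

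Around the 10 genes, the partners and regulators of NRF2 stood mostly near 0. Of 14 measured, 2 were 1.5-fold higher, 0 lower and 12 neither, with a median log2 ratio of 0.08 (-0.03 under total-count scaling). By the same rule 3.92% of all genes were higher and 3.91% lower. MAFF, a small MAF partner of NRF2 and BACH1, had 5133 counts in siKAT7 and 2977 in siControl (log2 ratio 0.89, interval 0.82 to 0.95). SQSTM1, the autophagy receptor p62 that binds KEAP1, had 32370 counts in siKAT7 and 22781 in siControl (0.61, 0.58 to 0.63), and under total-count scaling its 0.50 was below the limit. The other small MAF genes stayed under the limit, with MAFK at 0.37 (0.31 to 0.43) and MAFG at 0.22 (0.16 to 0.28). KEAP1 had 1435 counts in siKAT7 and 1494 in siControl, a log2 ratio of 0.04 (-0.06 to 0.15). CUL3 had -0.07 (-0.26 to 0.12), the related factor NFE2L1 -0.04 (-0.09 to 0.01) and the BACH1 paralogue BACH2 0.19 (-0.17 to 0.56). The intervals of KEAP1, CUL3, NFE2L1 and BACH2 all held 0.

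In the lists of further haem and iron handling genes, which do not hold HMOX1 or HMOX2, 0 genes passed the limit in either direction. The shares over all genes were 3.92% higher and 3.91% lower. Of 13 haem genes 6 had log2 ratios above 0 and 7 below, and the median was -0.06 (-0.17 under total-count scaling). BLVRB, a biliverdin reductase acting after haem oxygenase, had 8363 counts in siKAT7 and 6510 in siControl (0.46, 0.42 to 0.51). BLVRA, the other biliverdin reductase, had 0.08 (-0.06 to 0.21). The haem transporter SLC48A1 had 309 counts in siKAT7 and 451 in siControl (-0.44, -0.66 to -0.23), and FECH, which inserts iron into the ring, had -0.39 (-0.57 to -0.22). For the 9 measured iron genes the median was 0.03, and -0.08 with total-count scaling. The ferritin genes FTL and FTH1, which store iron and are also NRF2 and BACH1 targets, had 0.32 (0.30 to 0.33) and 0.20 (0.18 to 0.21). On the other side of 0 lay the iron transporter gene SLC11A2 with -0.42 (-0.71 to -0.13) and ACO1, whose protein is an iron-sensing RNA-binding protein, with -0.39 (-0.53 to -0.25). BLVRB, BLVRA, SLC48A1, FECH, FTL, FTH1, SLC11A2 and ACO1 are named here after their values were seen.

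Other NRF2-linked enzymes were read by list, beside 3.92% of all genes higher and 3.91% lower by the same rule. In the glutathione list 1 of 12 measured genes passed, with a median of 0.13 (0.03 under total-count scaling). This was CHAC1, which breaks glutathione down and is an ATF4 target, with 2983 counts in siKAT7 and 1533 in siControl (log2 ratio 1.06, interval 0.97 to 1.15). SLC7A11, the cystine transporter named after its values were seen, had 62 counts in siKAT7 and 46 in siControl and an interval of -0.04 to 1.12. None of 12 thioredoxin and peroxiredoxin genes passed (median 0.01, and -0.09 under total-count scaling), and none of 7 NADPH supply genes (median -0.07). Among 15 other NRF2 targets, 2 were higher, 0 lower and 13 neither, with a median of 0.01 (-0.10 under total-count scaling). These were TRIM16 (0.67, 0.54 to 0.80) and its near-copy TRIM16L (0.68, 0.44 to 0.92), which can share reads. Their summed counts of 1507 in siKAT7 and 1015 in siControl gave 0.67 (0.56 to 0.79), and under total-count scaling TRIM16 (0.56) and TRIM16L (0.57) were each just below the limit. Among genes of these lists listed at 0 counts in both libraries were CBR1, GPX2 and TXNIP, and they were not counted as measured.

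**Figure D4:**
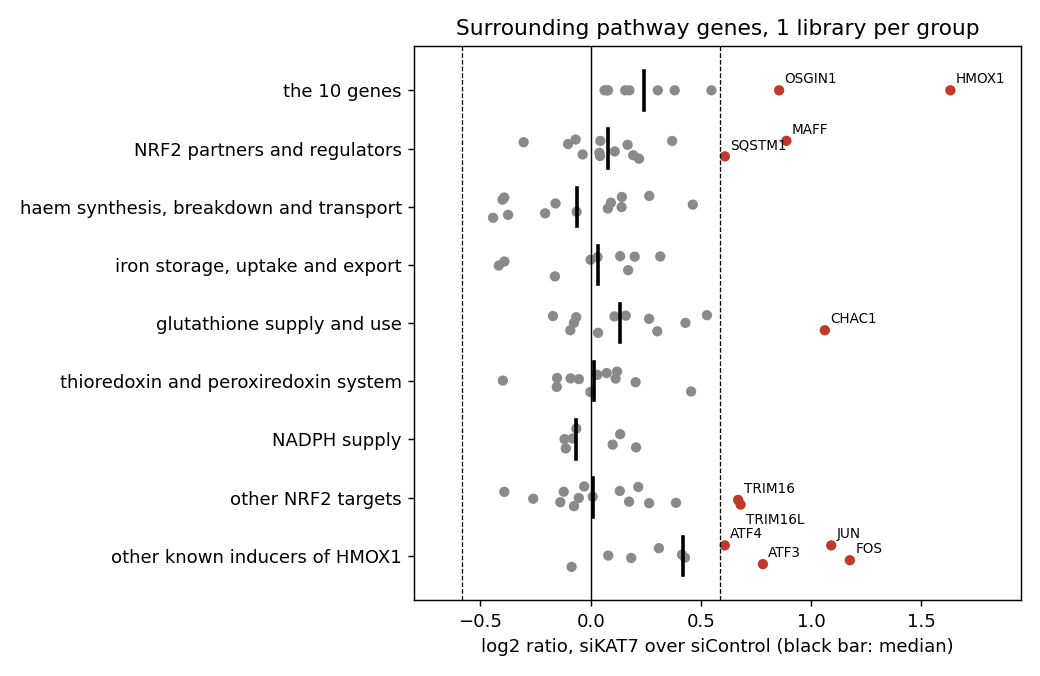
Log2 ratios, siKAT7 over siControl, of the measured genes of 8 surrounding lists and of the 10 genes, with the median of each as a black bar and dashed lines at 1.5-fold; red points are at least 1.5-fold higher with an interval that leaves out 0. Medians lie between -0.07 and 0.13 except for the 10 genes (0.24) and the other known inducers of HMOX1 (0.42). The 10 genes and the lists were chosen with earlier results of these data known, so these medians carry no test. Without HMOX1, OSGIN1 and SRXN1 the median of the other 7 members is 0.16.

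HMOX1 is also known to respond to factors outside the NRF2 axis, and their genes were read alongside. Of 10 measured, 4 were higher, 0 lower and 6 neither, with a median of 0.42 (0.31 under total-count scaling). Over all genes 3.92% were higher and 3.91% lower. FOS had 13907 counts in siKAT7 and 6607 in siControl (log2 ratio 1.18, interval 1.13 to 1.22). JUN, its AP-1 partner, had 20656 counts in siKAT7 and 10404 in siControl (1.09, 1.06 to 1.13). The stress factors ATF3 and ATF4 had 0.78 (0.74 to 0.83) and 0.61 (0.58 to 0.64), and ATF4 was below the limit at 0.50 under total-count scaling. HSF1, the heat shock factor, had 0.08 (0.01 to 0.15). The list was put together with the ratios of several of these genes known, and their part in the level of HMOX1 was not tested. In the deposited annotation, 6 of the 10 genes carry the term response to oxidative stress. Of the 96 measured genes with that term, HMOX1 among them, 4 were higher and 1 lower with a median of 0.03 (-0.08 under total-count scaling), beside 3.92% of all genes higher and 3.91% lower. Of 67 measured genes annotated to heme binding, which include HMOX1, HMOX2 and BACH1, 3 were higher and 5 lower (median 0.0068, and -0.10 under total-count scaling). Of 29 annotated to glutathione metabolic process, 0 were higher and 1 lower (median 0.04, and -0.07 under total-count scaling). These annotation lists were added after the data were seen.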

How the data were processed

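The members and the surrounding gene lists were chosen with earlier results of these data known. Per the submitters' processing notes, RSEM 1.3.3 and GRCh38.p13 were used; the sources used here give no aligner, annotation release or strand setting. The deposited table holds expected counts (estimated read counts per gene) for 1 library per group, with both columns repeated identically and each used once. The authors' deposited comparison gives a fold (ratio of siKAT7 to siControl), its log2 value and a p-value, and no p-value is reported here because 2 libraries do not test the conditions. The 331 rows without a gene name (1.67% of counts in siKAT7 and 1.11% in siControl) were left out.

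Counts were rounded and scaled by TMM factors (0.964 for siKAT7 and 1.04 for siControl; edgeR 4.0.16 in R 4.3.3). Log2 ratios used a prior count of 0.5, and each 95% interval is the exact Clopper-Pearson interval of the split of a gene's counts. Genes needed an average of at least 1 CPM. Higher or lower means 1.5-fold or more with an interval that left out 0. Levels per kilobase used the deposited lengths and exact Poisson intervals. PCR duplicates could not be told from separate molecules, so intervals cover counting error only. Exon overlaps came from GENCODE 29 on GRCh38. Alternatives were total-count scaling, DESeq2 1.42.0 size factors, a prior count of 5, 99% intervals, other filters and fold limits, and the authors' folds. The procedure was tested on simulated Poisson counts with known library sizes. These hold no spread between cultures, no scaling error and no divided reads, so the simulation checks the handling of counting error only.

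The rule for named genes took the 10 members, KAT7, 7 fixed regulators, up to 4 genes past the limit per list, and the 5 genes of at least 10 CPM nearest to HMOX1 in ratio. Marker genes, genes listed at 0, overlapping genes and further list genes given beside a list's count lie outside that rule and were chosen after their values were seen. All 118 list symbols were matched by name.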

Additional observations from a re-analysis of the deposited data

How the results depend on the processing

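With 1 library per group no library could be left out. No paired analysis was possible because each group has 1 library. DESeq2 size factors and a prior count of 5 moved none of the member ratios beyond their counting intervals. A prior count of 5 is small beside most of these counts. A 99% interval leaves each ratio unchanged by construction and bears only on whether the interval leaves out 0. HMOX1 and OSGIN1 were at least 1.5-fold higher with DESeq2 size factors, a prior count of 5 and 99% intervals. The same held under total-count scaling and in the authors' deposited table. Total-count scaling gave log2 ratios of 1.52 for HMOX1, 0.0495 for HMOX2, 0.75 for OSGIN1, 0.44 for SRXN1, 0.0686 for TXNRD1 and -0.0319 for NQO1. Each of these lies below the TMM counting interval of its gene, so those intervals do not cover the choice of scaling. The authors' deposited table gives 1.53, 0.0495, 0.75, 0.44, 0.0687 and -0.0319 for the same genes. These folds nearly equal the total-count ratios of the same libraries. The authors' folds, and the counts and medians from them below, are therefore not a check separate from total-count scaling. With TMM scaling and a fold limit of 2, 1 member (HMOX1) was higher, and at a limit of 25% above siControl 4 were (HMOX1, OSGIN1, SRXN1 and NFE2L2). Under total-count scaling the log2 ratio of NFE2L2 was 0.27, below the 25% limit.

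Of all genes, 518 were 1.5-fold higher and 517 lower. The numbers higher and lower were 179 and 144 at a 2-fold limit, 1341 and 1436 at the 25% limit, 1008 and 985 without an expression filter and 109 and 60 among genes averaging at least 10 CPM. With total-count scaling 360 were higher and 838 lower, and by the folds of the authors' deposited table, taken without an interval, 419 and 939, so the share of higher calls was 30.1% and 30.9% in place of 50.05%. List medians under total-count scaling were -0.0304 for NRF2 partners, 0.0263 for glutathione, -0.0927 for thioredoxin, -0.17 for NADPH supply, 0.31 for other HMOX1 inducers and 0.0109 for epithelial markers, and the folds of the authors' deposited table gave -0.0304, 0.0264, -0.0926, -0.17, 0.31 and 0.0110. Dividing by gene length gave 1.53 HMOX1 per HMOX2 in siKAT7 and 0.549 in siControl. Depth limits BACH1 most, with fewer than 100 counts in either library. The sum of TRIM16 with TRIM16L and that of NFE2L2 with AC019080.1 were chosen after seeing the data.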
